A study of Mus musculus with 72 samples.

Results

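The circadian clock genes described here are Per1, Per2, Per3, Cry1, Cry2, Arntl, Clock, Nr1d1, Nr1d2 and Dbp, 10 genes chosen by name from the 55401 genes listed in the count tables. They were followed through 72 RNA sequencing libraries of adult B6 mouse hypothalamus, the brain region that governs feeding, body temperature and daily rhythms. The study deleted conserved noncoding elements linked to hibernation, and its 5 lines, E1 to E5, each carry the knockout of 1 element (KO) or the wild type sequence (WT). In every line mice either had been fasted for 72 h with water or were fed, which gives 20 groups: fasted KO, fasted WT, fed KO and fed WT in each line. Of these, 8 groups hold 3 libraries (all of E3, both fasted E2 groups, fasted E4 KO and fasted E1 WT) and 12 hold 4. The labels give no age beyond adult, no sex, no position for any element and no hour of collection, and they do not say that each library came from a separate mouse, so p-values measure the spread between libraries, which may be partly technical. The names of the deposited tables carry the gene Fto.

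The mammalian clock is a loop of transcription and repression. The proteins CLOCK and BMAL1 (the product of Arntl) bind E-box sequences as a pair and switch on the Per, Cry, Nr1d and Dbp genes. PER and CRY proteins return to the nucleus and repress that pair, and the nuclear receptors REV-ERB alpha and beta (Nr1d1 and Nr1d2) repress Arntl. Transcripts of these genes rise and fall over the day in most tissues, Per1 also answers to glucocorticoids and to neuronal activity, and the suprachiasmatic nucleus of the hypothalamus sets the rhythm of the whole body.

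Depth was 5517552 to 39999368 counts per library, and the 9 members that were counted held between 79 and 6023 reads in every library. Levels are given as scaled CPM: counts over the 21749 genes listed in all 10 tables were brought to a common library total and adjusted by TMM factors. A gene was called changed at an adjusted p under 0.05 in edgeR's quasi-likelihood test over all genes tested, and each fold change carries a standard error (SE). The labels give each library a batch number. Fasted and fed mice share a batch in E1 and in E3, but not in E2, E4 and E5, where feeding and batch cannot be told apart. With no hour in the labels, a difference in hour between fasted and fed mice cannot be told apart from fasting in any line. Fasted and fed E3 libraries held the Y-linked transcript Ddx3y at 77.4 to 153 scaled CPM and all other lines at 0.317 or less, so sex, batch and line coincide between E3 and the rest. Hypothalamus markers (14 of 14 detected) summed to at least 230 scaled CPM in every group. Of 12 suprachiasmatic nucleus genes, 11 were detected and Grp was at 0, and the list summed to between 390 and 986 scaled CPM. Some libraries also held transcripts of neighbouring tissues. Choroid plexus genes, 9 of 10 detected with Kcnj13 at 0, summed to as little as 20.6 scaled CPM in fed E5 KO and reached 3280 in fasted E5 WT. Anterior pituitary genes, 8 of 10 detected with Tshb and Lhb at 0, reached 21000 in fasted E5 KO, 12500 in fasted E2 WT and 7090 in fasted E4 KO.

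Per3 was listed with 0 counts in all 72 libraries. Its neighbours on chromosome 4, Uts2, Vamp3 and Gm13090, were also listed at 0 throughout, while nearby Errfi1 and Park7 reached 1492 and 2228 counts. All 37 mitochondrial genes and 2120 of 21576 protein-coding genes were likewise at 0 in every library, so nothing can be read from the 0 of Per3, and 9 of the 10 members were tested in every comparison. Exons of 4 members overlap another gene on the opposite strand in the mm10 annotation (GENCODE): Dbp with Sphk2 over 18.0% of its exon length, Nr1d1 with Thra over 8.5%, Cry2 with D930015M05Rik over 4.7% and Arntl with Gm45355 over 0.4%. The labels do not say whether reads keep their strand, so reads in those stretches cannot be told apart.

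Promoters are shown because E-boxes and ROR elements are how the clock proteins reach these genes. Cry1, Per1, Cry2 and Nr1d1 also differed between fasted and fed mice in several lines. RefSeq windows on GRCm38.p6 (mm10), running 250 bases before to 50 bases after the start, were matched for 9 of the 10 genes, 13 windows in all. Each was searched on both strands for the E-box CACGTG, the E-box variant CACGTT, the D-box TTATGTAA or TTACGTAA, the core of the ROR element TAGGTCA or TGGGTCA, and the cyclic AMP response element TGACGTCA. No 2 of these motifs overlapped in the windows of the members. Among all 32851 windows, CACGTG was found in 7.15%, CACGTT in 4.68%, the D-box in 1.06%, the ROR core in 6.45% and the cyclic AMP element in 1.79%. The 5 windows below are written 5′ to 3′ on the strand of the gene, with the matched motif in capitals. Where AACGTG is in capitals, it is CACGTT read on the other strand.
Cry1, chr10:85185005-85185304, minus strand: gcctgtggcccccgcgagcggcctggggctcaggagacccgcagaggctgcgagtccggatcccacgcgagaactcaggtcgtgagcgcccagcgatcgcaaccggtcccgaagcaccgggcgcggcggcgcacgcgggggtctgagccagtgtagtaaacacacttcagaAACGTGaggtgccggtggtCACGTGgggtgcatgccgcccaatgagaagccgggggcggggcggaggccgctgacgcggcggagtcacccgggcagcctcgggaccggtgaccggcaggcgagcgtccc
Per1, chr11:69098699-69098998, plus strand: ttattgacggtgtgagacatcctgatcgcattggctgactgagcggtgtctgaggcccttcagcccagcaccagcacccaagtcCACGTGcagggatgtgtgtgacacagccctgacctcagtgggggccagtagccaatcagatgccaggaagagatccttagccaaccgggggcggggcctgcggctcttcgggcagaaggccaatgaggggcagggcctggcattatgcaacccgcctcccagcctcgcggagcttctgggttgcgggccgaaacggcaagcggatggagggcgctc
Cry2, chr2:92434020-92434319, minus strand: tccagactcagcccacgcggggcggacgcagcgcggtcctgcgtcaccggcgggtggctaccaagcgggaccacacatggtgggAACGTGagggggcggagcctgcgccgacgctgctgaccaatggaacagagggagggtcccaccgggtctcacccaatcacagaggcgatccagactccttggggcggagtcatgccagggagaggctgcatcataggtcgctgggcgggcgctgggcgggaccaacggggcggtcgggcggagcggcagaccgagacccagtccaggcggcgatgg
Nr1d1, chr11:98775328-98775627, minus strand: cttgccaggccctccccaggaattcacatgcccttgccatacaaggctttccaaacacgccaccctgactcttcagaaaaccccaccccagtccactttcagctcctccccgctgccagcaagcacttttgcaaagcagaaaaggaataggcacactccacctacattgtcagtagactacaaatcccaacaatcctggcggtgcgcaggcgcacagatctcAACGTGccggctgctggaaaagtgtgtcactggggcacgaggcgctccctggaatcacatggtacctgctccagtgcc
Arntl, chr7:113207261-113207560, plus strand: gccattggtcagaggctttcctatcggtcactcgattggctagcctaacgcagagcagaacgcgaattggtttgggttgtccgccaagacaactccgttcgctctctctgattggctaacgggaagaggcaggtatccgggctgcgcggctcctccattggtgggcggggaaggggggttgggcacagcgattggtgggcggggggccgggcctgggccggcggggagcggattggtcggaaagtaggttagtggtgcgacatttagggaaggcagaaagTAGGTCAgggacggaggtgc
Positions of a motif's first base are counted from the start of transcription. Cry1 carried CACGTG at -60 and the variant at -79. In Per1 the E-box was at -166 in the first of its 2 windows, in Cry2 the variant was at -166, and in Nr1d1 it was at -28. The second Arntl window held the ROR core at 31, the element through which REV-ERB proteins act. Per3 had 2 D-boxes, at -205 and -158. No window of Clock, Nr1d2 or Dbp held any of the motifs, and none held the cyclic AMP element. These are matches of letters and show no binding.

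Per kilobase of exon, the order of levels in the 19 fed WT libraries was led by Nr1d2, and Cry2 was lowest. On this scale the mean of the 5 line means was 26.9 scaled CPM per kb for Nr1d2, 16.5 for Nr1d1, 13.5 for Clock and 13.1 for Per1. Dbp, the gene of a transcription factor that acts through D-boxes, averaged 9.83, Per2 averaged 9.25, Arntl 9.06, Cry1 7.52 and Cry2 6.09 scaled CPM per kb. The lowest line mean of Nr1d2 (21.0) lay above the highest of Nr1d1 (20.4). Every other pair of neighbours in this order had overlapping ranges of line means. Between libraries of 1 group, Dbp was the most variable member, with a median coefficient of variation of 14.6% over the 20 groups. Clock was the steadiest, at 6.27%, and the other 7 members lay between 7.06% and 11.9%.

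**Figure D1:**
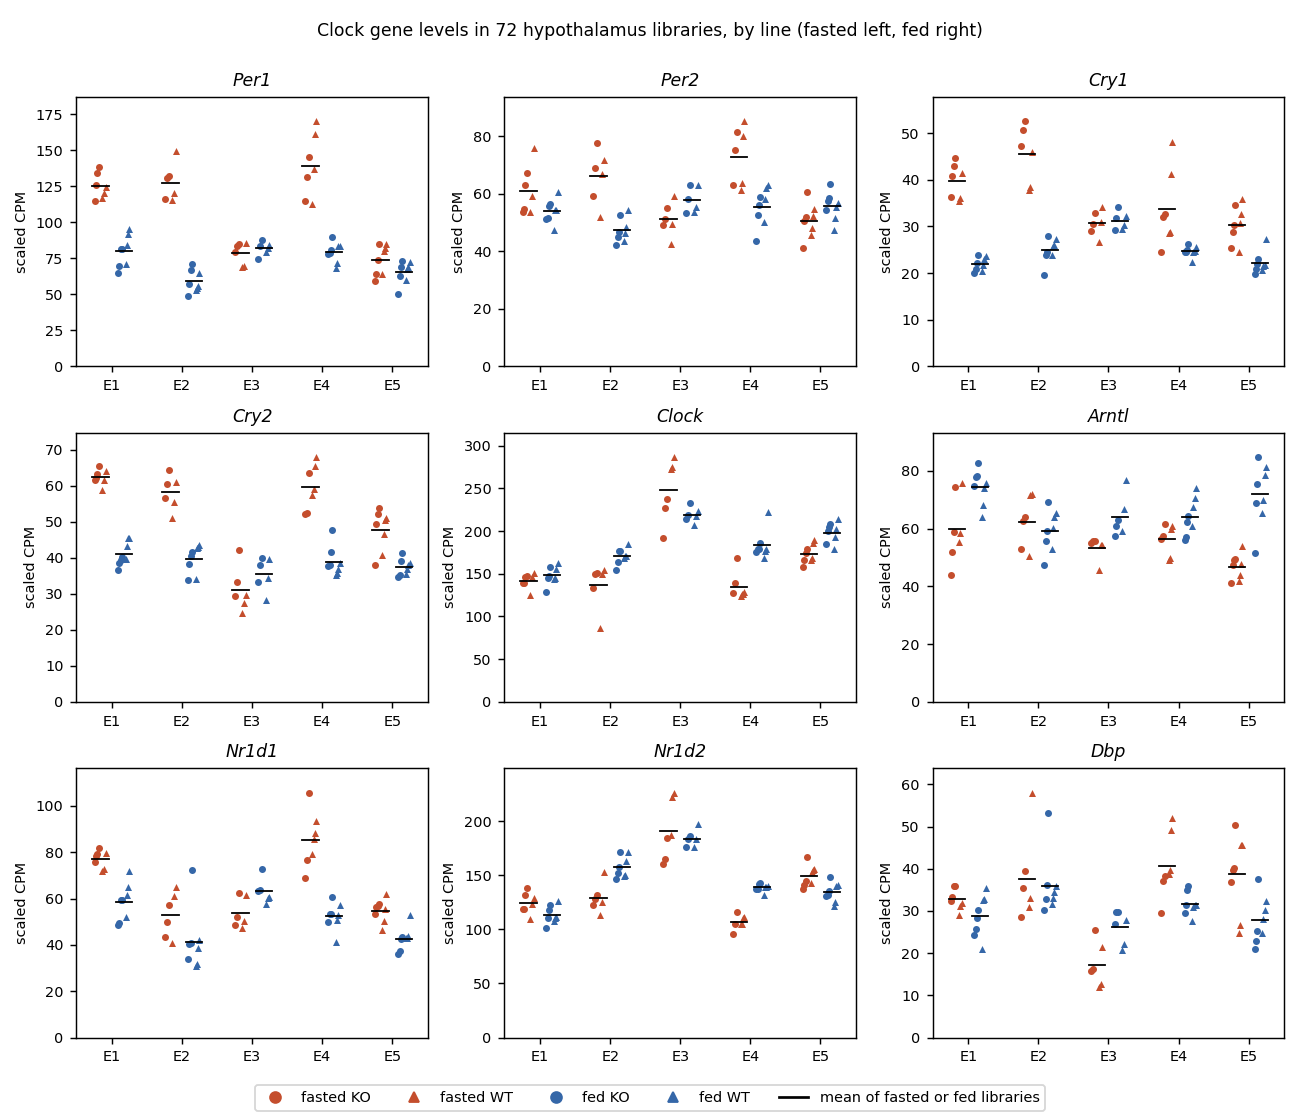
Scaled CPM (vertical axis, from 0) of the 9 counted clock genes in 72 libraries, by line (horizontal axis), with fasted libraries in red left of fed libraries in blue, knockouts as circles left of wild types as triangles, and the mean of each feeding state as a bar. Cry1, Per1 and Cry2 stand higher in fasted than in fed libraries of E1 and E2, while in E3 the fasted and fed points of these genes share 1 range.

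Cry1, Cry2 and Per1 were higher in fasted than in fed mice in E1, E2, E4 and E5. Per1 in E5 was only just past the threshold, and no Per or Cry gene passed the test in E3. Fasted and fed mice share a batch only in E1 and E3, so in E2, E4 and E5 feeding and batch cannot be told apart. The other repressors did not move as a group: Per2 rose in E2 and E4, Nr1d1 rose in E1, E4 and E5, and Nr1d2 fell in E2 and E4 and rose in E5. The difference from E3 was tested for E1 alone. Cry1 rose in E1, E2, E4 and E5, by 39.6% to 82.7%, and so did Cry2, by 30.2% to 57.2%. Per1 rose in the same 4 lines, most in E2, where it was 116% higher. Arntl fell in E1 and E5, and Dbp fell in E3 but rose in E4 and E5, its E4 estimate turning to -0.11 with the GC trend of each library taken out. Members called were 5 of 9 in E1 (4 higher, 1 lower), 5 in E2 (4 and 1), 1 in E3 (0 and 1), 8 in E4 (6 and 2) and 8 in E5 (6 and 2). Of all genes in the same fits, 40% were called in the E1 line (20.5% higher, 19.4% lower) and 18.9% in the E2 line (9.57% higher, 9.31% lower). The shares for the E3 line were 11.5% (6.93% higher, 4.54% lower), for E4 48.5% (25% higher, 23.5% lower) and for E5 62.9% (30.8% higher, 32.1% lower). The 1 member of E3 is thus at the background, and the 8 of E5 stand in a fit where most genes were called. Median log2 fold changes over the 9 members were highest in E4 (0.416) and E2 (0.368), with 0.199 in E5, 0.192 in E1 and -0.178 in E3. Medians over all genes lay between -0.014 and 0.008. In bulk tissue, fewer cells of a type and less RNA per cell cannot be told apart.

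**Figure D2:**
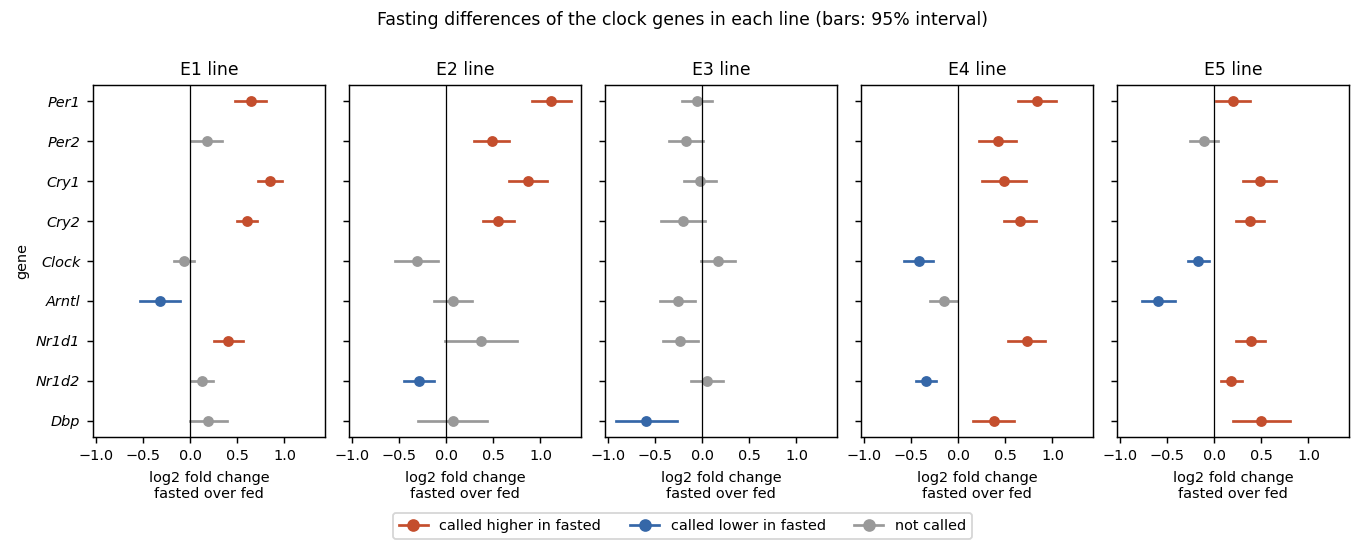
Log2 fold change of fasted over fed (horizontal axis) for each clock gene (rows) in the 5 lines (panels), with KO and WT pooled and genotype as a covariate; points are estimates and bars 95% intervals. Red marks genes called higher in fasted mice, blue lower and grey not called. Cry1 is at 0.84 in E1 and at -0.03 in E3.

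Cry1 encodes the stronger repressor of the 2 cryptochromes. In E1 it was at 35.5 to 44.8 scaled CPM (median 40.7) in the 7 fasted libraries, against 19.96 to 23.9 (median 21.9) in the 8 fed ones. In E2 it was at 37.9 to 52.5 (median 46.7) in 6 fasted libraries, against 19.7 to 28.0 (median 25.2) in 8 fed ones. Every fasted library of these 2 lines lay above every fed one. The log2 fold changes were 0.84 (SE 0.06, adjusted p 1.55e-07) in E1 and 0.87 (SE 0.09, adjusted p 9.88e-05) in E2. In E4 the fasted range was 24.6 to 48.1 (median 32.0) and the fed range 22.3 to 26.2 (median 24.6), and in E5 the fasted range was 24.6 to 35.9 (median 30.4) and the fed range 19.8 to 27.2 (median 21.6), with overlap in both lines. The log2 fold change was 0.48 in E4 (SE 0.11, adjusted p 0.00201) and 0.48 in E5 (SE 0.08, adjusted p 7.6e-05). In E3, Cry1 was at 26.6 to 34.2 scaled CPM in fasted and 29.1 to 34.3 in fed libraries, a log2 fold change of -0.03 (SE 0.08, adjusted p 0.861). The fed E3 libraries all lay above the fed libraries of the other 4 lines, which ranged from 19.7 to 28.0.

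Cry2, the other cryptochrome, was at 58.8 to 65.6 scaled CPM in fasted E1 libraries (median 62.1), against 36.7 to 45.6 (median 40.0) in fed ones, with no overlap. The same held in E2, at 51.1 to 64.5 in fasted and 33.9 to 43.5 in fed libraries, and in E4, at 52.1 to 68.0 in fasted and 35.3 to 47.9 in fed libraries. Its log2 fold changes were 0.60 in E1 (SE 0.05, adjusted p 5.07e-07), 0.55 in E2 (SE 0.08, adjusted p 6.31e-04) and 0.65 in E4 (SE 0.08, adjusted p 1.2e-05). In E2 KO alone, Cry2, Cry1 and Per1 were at 0.65, 1.06 and 1.05 in fasted against fed libraries, all called. The fasted KO libraries had pituitary sums of 14.4 to 36.7 scaled CPM. The part of pituitary transcripts in the E2 changes was not tested. The fed KO libraries included replicate 3, which held fat genes. In E2 WT alone, Cry1 (0.69) and Per1 (1.20) were called and Cry2 was at 0.47 (adjusted p 0.0774). In E5 the Cry2 change was 0.38 (SE 0.07, adjusted p 1.82e-04), from overlapping ranges of 38.1 to 54.0 in fasted and 34.6 to 41.4 in fed libraries. In E3 the ranges were 24.6 to 42.2 in fasted and 28.2 to 40.0 in fed libraries, and the estimate was -0.20 (SE 0.11, adjusted p 0.226).

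Per1, whose product is a PER repressor and whose transcript is rapidly induced by light, activity and steroid signals, was at 116 to 150 scaled CPM (median 126) in fasted E2 libraries, against 49.0 to 70.8 (median 56.6) in fed ones. In E1 it was at 115 to 138 (median 124) in fasted and 65.0 to 95.4 (median 81.8) in fed libraries, and in E4 at 112 to 170 (median 137) in fasted and 68.1 to 89.9 (median 79.9) in fed libraries. The groups did not overlap in any of these 3 lines. Log2 fold changes were 1.11 in E2 (SE 0.10, adjusted p 2.92e-05), 0.64 in E1 (SE 0.08, adjusted p 1.5e-05) and 0.84 in E4 (SE 0.09, adjusted p 6.1e-06). In E5 the estimate of 0.20 (SE 0.09, adjusted p 0.0494) was close to the threshold, and it stayed called in 5 of the 16 fits that each left out 1 library. In E3 the ranges were 69.1 to 85.4 in fasted and 74.9 to 87.6 in fed libraries, with an estimate of -0.06 (SE 0.07, adjusted p 0.621).

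Per2, the second PER gene, was called in 2 lines. It rose by a log2 fold change of 0.48 in E2 (SE 0.09, adjusted p 0.00269), at 51.8 to 77.6 scaled CPM in fasted and 42.1 to 54.2 in fed libraries. In E4 it rose by 0.42 (SE 0.09, adjusted p 0.00132), at 61.2 to 85.2 in fasted and 43.4 to 63.0 in fed libraries. The ranges overlapped in both lines. In E1, E3 and E5 the estimates were 0.17, -0.18 and -0.11.

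On the activator side, Arntl was lower in fasted mice in 2 lines, and Clock in 2. Arntl was at 41.0 to 54.1 scaled CPM (median 47.6) in fasted E5 libraries, against 51.5 to 84.7 (median 72.6) in fed ones, where 1 fed library lay within the fasted range. The log2 fold change was -0.60 in E5 (SE 0.08, adjusted p 9.76e-06) and -0.32 in E1 (SE 0.10, adjusted p 0.0167). In E3 its fasted range of 45.5 to 55.7 lay wholly below the fed range of 57.3 to 77.0, but the estimate of -0.26 (SE 0.09) did not pass over all genes (adjusted p 0.0665). DESeq2 gave Arntl in E3 an adjusted p of 0.0437, and a fit with the GC trend taken out gave 0.0404. In other edgeR fits it did not pass. Its adjusted p was 0.148 without libraries holding other tissues, 0.0581 in E3 WT alone and 0.604 in E3 KO alone, at -0.11. In E4 and E2 the estimates were -0.16 (adjusted p 0.0727) and 0.07 (adjusted p 0.616).

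Clock was at 124 to 169 scaled CPM in fasted E4 libraries, against 168 to 222 in fed ones, a log2 fold change of -0.42 (SE 0.07, adjusted p 2.12e-04). In E5 it was at 157 to 190 in fasted and 179 to 214 in fed libraries, a change of -0.17 (SE 0.05, adjusted p 0.0108). Fasted E2 libraries, at 86.0 to 154, all lay below the fed ones, at 155 to 184, but the estimate of -0.32 (SE 0.11) had an adjusted p of 0.0526. The lowest of them, fasted E2 WT replicate 3 at 86.0, also had the highest Dbp of that line, at 58.0. In E3, Clock was at 192 to 286.5 in fasted and 207 to 232 in fed libraries, with an estimate of 0.17 (adjusted p 0.195).

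Nr1d1 rose in 3 lines, and Nr1d2, the second REV-ERB gene, moved in both directions. Nr1d1 was at 71.8 to 81.9 scaled CPM (median 78.5) in fasted E1 libraries, against 48.5 to 71.7 (median 59.5) in fed ones, and at 68.8 to 106 (median 85.7) in fasted E4 libraries, against 41.2 to 60.6 (median 53.0) in fed ones. Neither line had overlap, although in E1 the ranges all but touch. Its log2 fold changes were 0.40 in E1 (SE 0.07, adjusted p 4.86e-04), 0.73 in E4 (SE 0.09, adjusted p 1.7e-05) and 0.38 in E5 (SE 0.07, adjusted p 1.58e-04). Thra, which overlaps 8.5% of the Nr1d1 exon length on the other strand, also rose in these 3 lines, by 0.32, 0.68 and 0.22. The part of Thra reads in the Nr1d1 values was not tested. In E2 the estimate was 0.37 (SE 0.18, adjusted p 0.162) and in E3 -0.23 (SE 0.09, adjusted p 0.0877). Fed E2 KO replicate 3 was at 72.3 scaled CPM of Nr1d1 while the other 7 fed E2 libraries were at 30.9 to 42.3. That library summed to 5600 scaled CPM of fat genes (7 of 7 detected), against at most 1.22 in fed E2 WT libraries. Without it, Nr1d1 in E2 came to 0.53 (SE 0.12, adjusted p 0.00558).

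Nr1d2 fell by 0.35 in E4 (SE 0.05, adjusted p 3.72e-05), at 96.1 to 116 scaled CPM in fasted and 132 to 143 in fed libraries with no overlap. In E2 it fell by 0.29 (SE 0.07, adjusted p 0.014), at 113 to 152 in fasted and 147 to 171.8 in fed libraries. In E5 it rose by 0.18 (SE 0.06, adjusted p 0.00824), at 137 to 167 in fasted and 121 to 148 in fed libraries. The E5 call was lost without libraries holding other tissues, at 0.15 (edgeR adjusted p 0.0516), and in E5 KO alone, at 0.13 (adjusted p 0.261). The E2 call was lost in E2 WT alone, at -0.28, and in E2 KO alone, at -0.30. Estimates in E1 and E3 were 0.12 and 0.05. Fed E3 libraries, at 176 to 196.9, lay above the fed libraries of every other line, which ranged from 102 to 171.8.

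Dbp, the output gene, had the only member call in E3. It was at 12.1 to 25.4 scaled CPM (median 16.1) in fasted E3 libraries, against 20.7 to 29.8 (median 27.4) in fed ones. By genotype the fasted values were 16.3, 15.9 and 25.4 in KO and 12.8, 12.1 and 21.4 in WT, and the fed values 29.7, 29.8 and 27.0 in KO and 27.9, 20.7 and 22.2 in WT. The log2 fold change was -0.60 (SE 0.15, adjusted p 0.0232), and it stayed called in 9 of the 12 fits that each left out 1 library, all but those without fasted KO replicate 2, fasted WT replicate 1 or fed WT replicate 1. Choroid plexus genes summed to 758 in 1 fasted KO, 491 in 1 fasted WT and 639 in 1 fed KO library of E3, and without these 3 libraries Dbp was at -0.51 (SE 0.18, adjusted p 0.107). In E5 Dbp rose by 0.50 (SE 0.14, adjusted p 0.00572), at 24.8 to 50.4 in fasted and 21.1 to 37.5 in fed libraries. In E4 it rose by 0.38 (SE 0.10, adjusted p 0.00627), at 29.6 to 52.1 in fasted and 27.6 to 35.8 in fed libraries. That call was lost in E4 KO alone, at 0.09 (adjusted p 0.62), and with the GC trend taken out, at -0.11 (adjusted p 0.393). Sphk2, which overlaps Dbp, rose in E4 by 0.45 and in E5 by 0.19 and was at -0.04 in E3.

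E1, where Cry1, Cry2 and Per1 rose, and E3, where Dbp alone was called, can be set against each other within batches, because E1 and E3 each have fasted and fed mice in 1 batch. The signed fasting change was higher in E1 than in E3 for 6 of the 9 members and lower for 1, by a test of the difference itself in a fit of all 27 libraries. The estimates of all 7 members called had opposite signs in E1 and E3, although some were close to 0 and in E3 Dbp alone was called. For Dbp and Per2, at 0.19 and 0.17 in E1 and -0.60 and -0.18 in E3, the higher value does not mean a larger change. Of all genes, 19.9% were called in that test (9.87% higher, 10.1% lower). The difference of log2 fold changes, E1 minus E3, was 0.86 for Cry1 (SE 0.10, adjusted p 8.36e-06), 0.80 for Cry2 (SE 0.11, adjusted p 3.82e-05) and 0.69 for Per1 (SE 0.10, adjusted p 8.51e-05). For Nr1d1 it was 0.63 (SE 0.11, adjusted p 3.46e-04), for Dbp 0.78 (SE 0.18, adjusted p 0.00425) and for Per2 0.35 (SE 0.12, adjusted p 0.0333). Clock differed by -0.24 (SE 0.08, adjusted p 0.0426), a call that was kept in 2 of 6 other settings and in 11 of 27 fits without 1 library. The Per2 call was kept in 15 of those 27 fits and lost without the libraries listed for transcripts of other tissues. Arntl did not separate the lines, at -0.05 with a 95% interval of -0.32 to 0.22, and neither did Nr1d2, at 0.08 with an interval of -0.10 to 0.26. Line, batch and sex by Ddx3y coincide here and cannot be told apart. The hour of collection is not given and may also differ between these groups. Tissue markers moved in the same contrast. Of 14 hypothalamus markers 0 were higher and 8 lower, with a median of -0.69. They summed to 326 to 591 scaled CPM in fasted and 485 to 635 in fed E1 libraries, and to 320 to 467 in fasted and 230 to 310 in fed E3 libraries. Of 10 endothelial genes, all detected, 5 were higher and 0 lower, and they summed to 142 to 225 in fasted and 126 to 234 in fed E1 libraries, and to 90.5 to 139 in fasted and 143 to 277 in fed E3 libraries. The part of these in the differences of the clock genes was not tested.

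**Figure D3:**
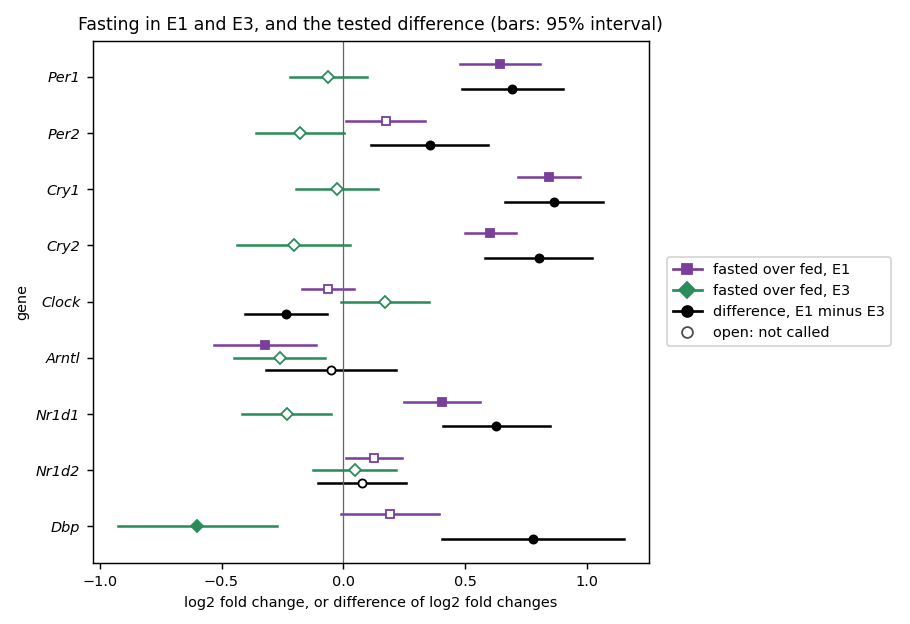
Log2 fold change of fasted over fed in E1 (purple squares) and E3 (green diamonds), and the difference between them (black circles), for each clock gene (rows), with 95% intervals; open symbols did not pass the test. The differences of Cry1, Cry2, Dbp, Per1 and Nr1d1 lie between 0.63 and 0.86, while that of Arntl is at -0.05.

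In one fit of the WT libraries of E1 and E3, with the line as a covariate, Cry1 was the 1 member called of 9, where 11% of all genes were called (5.37% higher, 5.65% lower). Its log2 fold change of 0.41 (SE 0.13, adjusted p 0.0484) averaged 0.76 in E1 WT alone and 0.01 in E3 WT alone, and it was lost in 11 of 13 fits without 1 library. E1 WT alone had 3 members called, Cry1, Cry2 at 0.50 (adjusted p 0.0118) and Per1 at 0.49 (adjusted p 0.0248). E1 KO alone had 6 called: the same 3 at 0.92, 0.70 and 0.78, and Nr1d1 at 0.54, Arntl at -0.46 and Dbp at 0.35. Of all genes, the KO fit called 5169 of 14807 and the WT fit 784 of 14877. In E3 WT alone, Clock was higher in fasted mice, at 0.37 (SE 0.09, adjusted p 0.0227), while in E3 KO alone it was at -0.01. Of all genes, the E3 WT fit called 2891 of 14534 and the E3 KO fit 74 of 14663. The difference in the fasting change of Clock between E3 KO and WT, tested directly with edgeR, was not called (adjusted p 0.159).

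GC content separates these genes, and some of the calls changed when each library's trend on it was taken out. Taking out the trend also removes any fasting difference that follows GC content, so GC bias and fasting cannot be told apart there. Clock and Nr1d2 have the lowest GC content in their exons, 40.9% and 41.8%, and Dbp and Per1 the highest, 61.6% and 59.4%. In E4, the members called lower were Clock and Nr1d2, and the 6 called higher had 51.6% or more. A fit in which each library's trend on GC content was taken out left 4 members called in E4, against 8. Per1 then rose by 0.41, Nr1d1 by 0.37, Cry1 by 0.36 and Cry2 by 0.33, and Clock came to -0.05, Nr1d2 to -0.02 and Per2 to 0.15, none of them called. Dbp turned to -0.11 in E4. In E1, Cry1, Cry2, Per1 and Nr1d1 stayed at 0.86, 0.58, 0.60 and 0.37, all called, and in E2, Per1, Cry1, Cry2 and Per2 stayed called at 0.95, 0.81, 0.42 and 0.38. The calls of Nr1d2 in E2 and of Per1 and Clock in E5 were lost, and those of Nr1d2 in E1 (0.14), Clock in E2 (-0.21) and Per2 in E5 (-0.18) were gained.

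**Figure D4:**
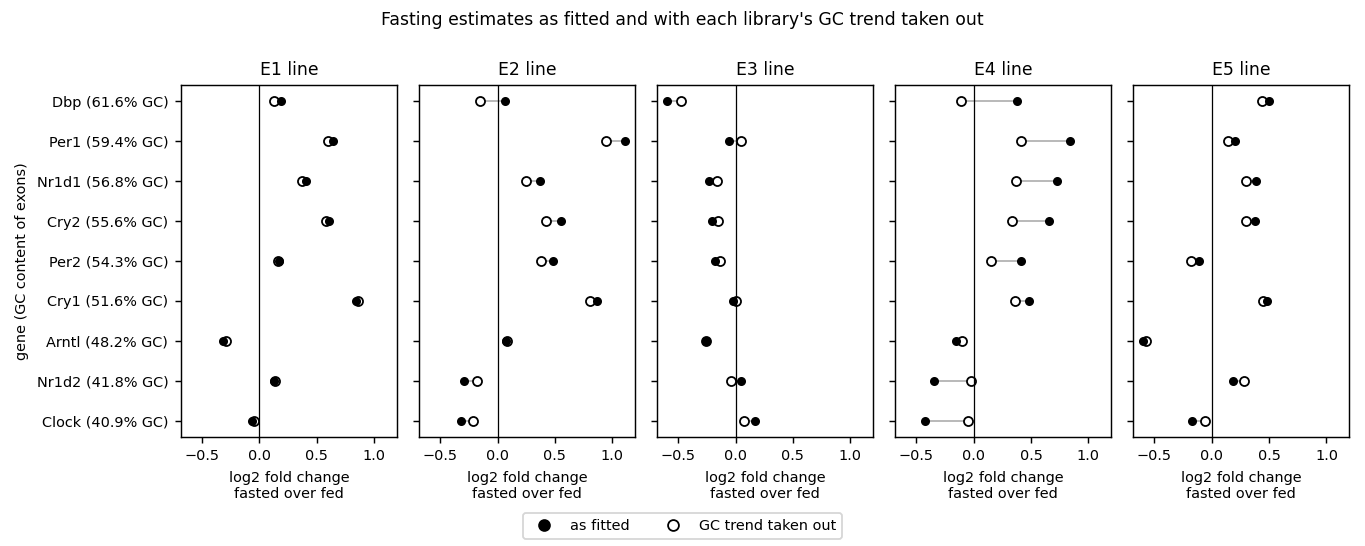
Log2 fold change of fasted over fed (horizontal axis) for the clock genes, ordered by the GC content of their exons (rows), in the 5 lines (panels), as fitted (filled) and with the GC trend of each library taken out (open). In E4 all 6 genes with a GC content of 51.6% or more shift left, and Clock and Nr1d2 shift right to about 0; in E1 the symbols nearly coincide.

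Fasted E5 WT and fed E2 WT share a batch, although line and feeding coincide between them. Members called were 3 of 9, where 30.7% of all genes were called (15.7% higher, 15% lower). Nr1d1 was higher in fasted E5 by 0.60 (SE 0.12, adjusted p 0.00336) and Per1 by 0.48 (SE 0.10, adjusted p 0.00462), and Arntl was lower, at -0.34 (SE 0.10, adjusted p 0.0199). Cry1, at 0.30 (SE 0.11), and Cry2, at 0.24 (SE 0.10), had adjusted p of 0.057 and 0.0817. Without the 2 fasted E5 WT libraries that held other tissues, 1 member, Nr1d1, remained called.

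Of 21 other genes of the clock, 19 were tested, Ciart and Usp2 being listed at 0 in all libraries. Fasted mice had 6 higher and 3 lower in E1, 3 and 1 in E2, 0 and 1 in E3, 5 and 3 in E4, and 8 and 5 in E5. Of all genes in the same fits, 40%, 18.9%, 11.5%, 48.5% and 62.9% were called in that order of lines, so the counts of this list are read as no more than the background. Tef, a relative of Dbp that binds the same D-boxes, rose in E1 by 0.38 (SE 0.04), in E2 by 0.48 (SE 0.09), in E4 by 0.32 (SE 0.08) and in E5 by 0.56 (SE 0.06), and was at -0.16 (SE 0.08, adjusted p 0.188) in E3. Its fasting change was higher in E1 than in E3 by 0.55 (SE 0.08, adjusted p 1.1e-04), and of the other clock genes Hlf, Bhlhe41, Cipc and Arntl2 were also higher by that test, 5 of 19 in all with 0 lower. Of all genes, that test called 19.9% (9.87% higher, 10.1% lower). Hlf, the third of that family, rose in E1 by 0.50 (SE 0.09). Rora, an activator of Arntl through the ROR element, fell in E5 by 1.29 (SE 0.19), and Rorb fell in E4 by 0.44 and in E5 by 0.35. Rora is also on the list of thalamus genes (8 of 8 detected), which summed to 891 to 1230 scaled CPM in fasted and 1240 to 2470 in fed E5 libraries; the part of thalamic tissue in these values was not tested. Btrc, part of a ligase that marks PER proteins for breakdown, fell in E1, E2, E4 and E5 by 0.28, 0.22, 0.28 and 0.26. Among the rest of the called genes with the smallest p, Nfil3, the repressor at D-boxes, fell by 0.35 in E1. Csnk1e, a kinase of PER proteins, rose by 0.42 in E4, Bhlhe41 rose by 0.22 in E1, 0.36 in E4 and 0.27 in E5, and Npas2, a relative of Clock, rose by 0.37 in E2 but fell by 0.55 in E5. Arntl2 was the single gene of this list called in E3, at -0.40.

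Signals that are known to act on clock genes were measured beside them. Their counts are read beside the share of all genes called by the same fits. The E5 fit called 62.9% of all genes and the E4 fit 48.5%, while E1 had 40%, E2 had 18.9% and E3 had 11.5%. Glucocorticoid target genes were called higher in every line. They were 10 of 11 tested in E1, 7 of 12 in E2, 11 of 12 in E3, 9 of 12 in E4 and 10 of 11 in E5, where the other 1 fell. In E3 their sum was 976 to 1510 scaled CPM in fasted and 483 to 627 in fed libraries. Fkbp5, a chaperone induced by these steroids, rose by 1.01 (SE 0.13) in E3. Of 12 immediate early genes, which mark recent neuronal activity, 5 rose and 0 fell in E2, 1 rose and 1 fell in E1, 0 rose and 4 fell in E3, 2 rose and 4 fell in E4, and 1 rose and 8 fell in E5. Of 9 cold and heat genes, 2 rose and 1 fell in E1, 2 and 2 in E2, and 3 and 0 in E3. In E4, 2 rose and 3 fell, and in E5, 5 rose and 0 fell. From that list, Cirbp and Rbm3, cold-induced RNA-binding proteins, rose together in E1 (1.01 and 1.35), E2 (0.75 and 0.79), E4 (1.38 and 0.94) and E5 (1.21 and 1.31). In E3 Rbm3 rose by 0.70 and Cirbp was at 0.33 (SE 0.10, adjusted p 0.0534). Of the suprachiasmatic nucleus genes, 5 of 11 tested fell in E1, where they summed to 502 to 563 scaled CPM in fasted and 650 to 818 in fed libraries. Of all genes 19.4% fell there. In the other lines this list had 2 higher and 0 lower in E2, 0 and 0 in E3, 2 and 1 in E4, and 4 and 1 in E5. The part of these signals and of the share of that nucleus in the results of the clock genes was not tested.

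No clock gene was called changed by the deletion of an element. In all 10 comparisons of KO with WT, 0 of 9 members were called, and 0% of all genes were called. At an unadjusted p under 0.05, edgeR gave 3 members in fed E1, 1 in fasted E2, 1 in fed E3, 3 in fasted E3, 1 in fasted E4 and 0 in the other 5 comparisons. Of all genes, 4.85%, 7.47%, 9.74%, 17.5% and 9.39% were under it in the named comparisons, in that order. In the others the share was 2.82% to 7.32%. DESeq2 also called 0 members in each of the 10 comparisons. The authors' deposited tables cover 8 of these comparisons and give an adjusted p of 1 for every member. The estimates lay between -0.38 and 0.42 on the log2 scale. The 95% interval was narrowest for Clock in fed E1, at -0.21 to 0.07, and widest for Dbp in fasted E2, at -0.88 to 0.39, so changes of the size seen with fasting were within the interval there.

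**Figure D5:**
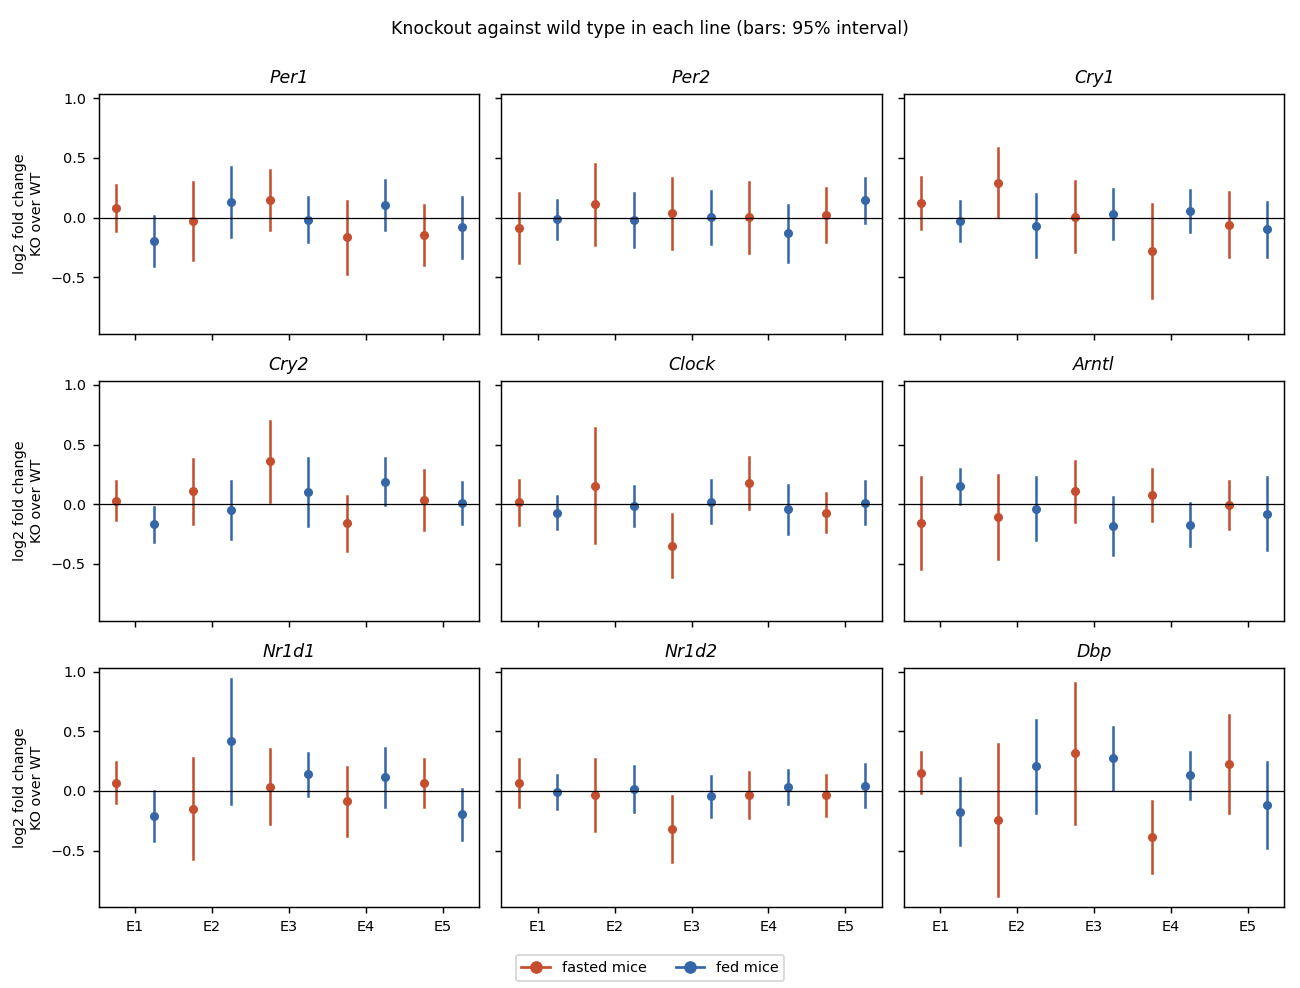
Log2 fold change of KO over WT (vertical axis) for each clock gene (panels) in the 5 lines (horizontal axis), in fasted mice (red, left) and fed mice (blue, right), with 95% intervals. Estimates lie between -0.38 and 0.42, and none passed the test over all genes.

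The smallest p among these came from fasted E3. Clock was at 228, 237 and 192 scaled CPM in fasted E3 KO, against 272, 275 and 286.5 in fasted E3 WT, with no overlap. The estimate was -0.35 (SE 0.12, adjusted p 0.21). Nr1d2 was at 165, 185 and 160 in the same KO libraries and 222, 187.5 and 226 in WT, an estimate of -0.32 (SE 0.12, adjusted p 0.244), and Cry2 was at 29.4, 33.4 and 42.2 in KO and 24.6, 29.8 and 27.4 in WT, an estimate of 0.36 (SE 0.15, adjusted p 0.274). In fasted E4, Dbp was at 37.0, 38.2 and 29.6 in KO, against 52.1, 49.1, 38.6 and 39.6 in WT, an estimate of -0.38 (SE 0.14, adjusted p 0.496). Each KO library lay below each WT library. In fed E3, Dbp was at 0.27 (SE 0.12, adjusted p 0.508), and in fed E1, Cry2, Nr1d1 and Arntl were at -0.17, -0.21 and 0.15, each with an adjusted p of 0.953.

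Cry1 in fasted E2 depended on 1 library. It was at 47.3, 52.5 and 50.7 scaled CPM in KO, against 38.5, 37.9 and 46.0 in WT, an estimate of 0.29 (SE 0.12, adjusted p 0.666). Pituitary transcripts summed to 1320 to 12500 scaled CPM in these WT libraries and to 14.4 to 36.7 in the KO libraries, and their part in the comparison was not tested. Without WT replicate 3, the library at 46.0, the fit called 772 of 20705 genes in place of 0. Cry1 was then at 0.41 (SE 0.07, adjusted p 0.0416), the 1 member called, from 3 KO against 2 WT libraries.

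Whether a knockout altered the response to fasting was tested as an interaction, the effect of KO in fasted mice minus that in fed mice. With edgeR it called 0 of 9 members in each line, and so did DESeq2. Of all genes it called 1.34% in E3 and 0% in the other 4 lines. At an unadjusted p under 0.05 there were 2 members in E4, 1 each in E1, E2 and E3, and 0 in E5. Of all genes, 11.2% were under it in E4, 8.1% in E1, 6.45% in E2, 20.4% in E3 and 5.95% in E5. Dbp in E4 was at -0.52 (SE 0.17, adjusted p 0.445) and Cry2 in E4 at -0.36 (SE 0.14, adjusted p 0.445). Clock in E3 was at -0.36 (SE 0.14, adjusted p 0.159), Cry1 in E2 at 0.38 (SE 0.17, adjusted p 0.762) and Cry2 in E1 at 0.20 (SE 0.09, adjusted p 0.596).

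Within groups, some pairs of members also varied together, or in opposite directions, from library to library. With each group's mean taken off, the 36 pairs of the 9 members were compared over 72 libraries, with 100000 permutations within groups and p adjusted over the 36 pairs, and 5 passed. Per2 varied with Arntl (Pearson r 0.56, permutation adjusted p 0.00216; Spearman rho 0.59, adjusted p 0.00144) and with Per1 (r 0.51, adjusted p 0.00396; rho 0.53, adjusted p 0.00252). Opposite signs were found for Arntl with Dbp (r -0.49, adjusted p 0.00702; rho -0.48, adjusted p 0.0048), Cry1 with Nr1d1 (r -0.43, adjusted p 0.0115; rho -0.39, adjusted p 0.0271) and Per1 with Clock (r -0.41, adjusted p 0.00702; rho -0.41, adjusted p 0.0127). Without the 2 libraries farthest from the median of the first gene, r was 0.52, 0.49, -0.45, -0.44 and -0.43 in that order of pairs. Within batches the sign was the same in 7 of 7 for Per1 with Clock and in 6 of 7 for each of the others. The batch values of r ran from -0.13 to 0.93 for Per2 with Arntl, from -0.39 to 0.88 for Per1 with Per2, from -0.94 to 0.03 for Arntl with Dbp, from -0.68 to 0.70 for Cry1 with Nr1d1 and from -0.75 to -0.06 for Per1 with Clock. With CPM of the library total in place of the TMM scale, 8 pairs passed, and r of Cry1 with Nr1d1 was -0.14. Libraries share depth, GC bias and tissue makeup, and the part of these in the correlations was not tested. The share of pairs that would pass among genes at large was not computed, so the 5 pairs are not shown to exceed it. Some genes outside the members reached r 0.87 with Arntl, above every pair of members.

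Over the same 72 libraries and 12965 genes, the genes whose within-group pattern was most like a member's were listed for 3 members, as a description. Arntl had Znrf3, Tmem108, Prickle2 and Dym, each at r 0.87, and Tmem150c at 0.86. The closest to Per1 were Tpst2 at 0.67, Zdhhc18 at 0.65, Stk40 at 0.64 and Kdm6b and Ulk1 at 0.62. Dbp had Vps16 at 0.65, Alad at 0.62, Arsa at 0.61, Cndp2 at 0.60 and Ppm1m at 0.58. The 5 genes nearest to Per1 have a GC content of 56.5% to 59.6%, beside 59.4% in Per1 itself, and those nearest to Arntl 44.1% to 51.1%, beside 48.2% in Arntl. Those nearest to Dbp have 51.5% to 58.3%, all below the 61.6% of Dbp.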

How the data were processed

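RNA was measured in 72 mouse hypothalamus libraries. The authors deposited raw counts per Ensembl gene in 10 tables and log2 fold changes (WT over KO) with p-values from edgeR for 8 comparisons. HISAT2, Bowtie2, edgeR and mm10 are named per the submitters' processing notes. Counting tool, annotation, strand and filters are not given in the sources used here. Per the labels' protocols, extraction used Qiagen RNeasy and library preparation an Ultra II DNA kit. All count columns were mapped to samples by name, leaving 0 unused.

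The test was the quasi-likelihood test of edgeR 4.0.16 under R 4.3.3 (TMM, filterByExpr with a minimum count of 10 and total of 15), with Benjamini-Hochberg adjustment over all genes tested and a threshold of 0.05. Fasting was tested per line with genotype as a covariate, and KO against WT within each feeding state. SE is the fold change divided by the root of F. Intervals carry 95% confidence. Log2 levels used a pseudocount of 0.5. Exon lengths and GC content are from the GENCODE annotation of mm10.

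Alternatives were RLE normalization, DESeq2 1.42.0, no filter, genes in all 10 tables, a GC trend (lowess, span 0.3) taken out, each library left out, 1 genotype alone, a list of 11 libraries with transcripts of other tissues left out, and a replicate block. That list holds fed E2 KO replicate 3 but none of the fasted E2 WT libraries with pituitary transcripts. Same-numbered libraries showed no consistent pairing (correlations of -0.41 to 0.62, and in no comparison over 0.1 for every pair), so the numbers were not taken to pair samples.

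All 10 members were named, as were up to 6 called genes per fasting comparison from the other clock genes, by p, the 5 genes most like Dbp, Arntl and Per1, and genes that overlap a member, except some that are not reported here; list genes such as Fkbp5, Cirbp and Rbm3 were named after their values were seen. The members and lists were chosen with earlier results of these data known. Knockout tests compare small groups, so depth and n limit what they can show.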

Additional observations from a re-analysis of the deposited data

Results flagged for a closer look

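The fasting change of 7 members was not the same in E1 and E3, by a test of the difference itself, E1 minus E3 on the log2 scale: Cry1 by 0.86, Cry2 by 0.80, Dbp by 0.78, Per1 by 0.69, Nr1d1 by 0.63, Per2 by 0.35 and Clock by -0.24. Line, batch and sex coincide in that contrast and cannot be told apart, and the hour of collection is not given.

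Of 108 sets of 4 libraries (9 members in 12 groups), 6 had 1 library far from the other 3 by Dixon's test, where chance gives about 1 in 20. All 6 are fed WT libraries. Cry1 was at 27.2 scaled CPM in E5 fed WT replicate 1 and Nr1d1 at 52.7 in E5 fed WT replicate 4. In E4 fed WT replicate 3, Nr1d2 was at 132 and Dbp at 27.6. Cry2 was at 34.2 in E2 fed WT replicate 1, and Clock at 184 in E2 fed WT replicate 4.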

How the results depend on the processing

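Of 38 member calls, 32 stayed called in every fit without 1 library, and 18 in every alternative run. Counts of members called moved by over 1.5 times as follows; the cause was not tested. In E1 and E3 WT, 1 member became 2 with the GC trend out, 0 without libraries holding other tissues and 3 in E1 WT alone. In E1, 5 became 3 in WT alone; in E2, 5 became 2 in WT alone and 3 in KO alone. In E3, 1 became 2 with DESeq2 and with the GC trend out, and 0 without libraries holding other tissues and in KO alone. In E4, 8 became 4 with the GC trend out, where Dbp reversed to -0.11. Fasted E5 against fed E2 WT went to 1 without libraries holding other tissues, and pairs went to 8 with CPM of the library total. Fits of 1 genotype hold fewer libraries. Leaving out 1 library gave 0 to 1 in E1 and E3 WT, 5 to 6 for fasting in E1 and likewise E2, 8 to 9 for E4, 7 to 8 for E5, 0 to 2 for E3, 2 to 4 in fasted E5 against fed E2 WT, 5 to 7 in E1 minus E3, 0 to 1 in KO against WT in fasted E2, and 0 elsewhere. With the replicate number as a block, members called stayed at 1 for fasting in E3 (Dbp at -0.63) and at 0 for the other 5 comparisons whose labels share numbers. Single-library and single-genotype fits rest on groups as small as 2, and depth of 5517552 counts in fasted E4 KO replicate 1 limits that group.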
